A study of Homo sapiens with 6 samples.

Results

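The genes described here are 33 well known transcriptional targets of p53, measured in K562, an established line of chronic myelogenous leukaemia that is generally described as lacking functional p53 protein. They were chosen by name, as every probe set whose only gene symbol in the platform annotation is one of the 33. This gave 88 of the 54613 probe sets other than controls, for 32 of the 33 genes. FDXR had no such probe set. The 3 DMSO arrays carry RNA from wells given the vehicle for 3 h, and the 3 CA arrays RNA from wells given 25 nM CA for 3 h. CA is cortistatin A according to the series title, a steroidal compound that blocks CDK8 and CDK19, the kinases of the Mediator complex. All wells held K562 cells plated at 500000 to 800000 per mL, and the label of neither group names a genetic change. The wells came from 1 line, so p-values measure the spread between wells of this line and this experiment. Each array measured RNA from all cells of a well, so fewer cells that express a gene and less RNA per cell cannot be told apart.

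p53 is a transcription factor that is held at a low level by the ubiquitin ligase MDM2 and its relative MDM4 and that accumulates after DNA damage and other stress. Its targets halt the cell cycle, repair DNA, trigger cell death, adjust metabolism, and feed back on p53 itself. Many of them have other inducers too. SESN2 and GDF15, for example, are also known as targets of ATF4, the transcription factor of the amino acid and endoplasmic reticulum stress responses. Probe sets of the p53 gene itself were not analysed here, so the arrays give no check of the p53 state of these cells.

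The arrays were checked against markers of the line. The embryonic globin genes HBE1 and HBZ had DMSO means of 13.27 and 12.04 on the RMA log2 scale, and the 7 measured erythroid markers were all bright enough to be tested. Of these 7, 0 were called and 2 had an unadjusted p under 0.05, against 8.61% of all genes. These were the erythroid transcription factor gene TAL1 (a change of 0.22) and the transferrin receptor gene TFRC (0.12), both with CA above DMSO on all arrays. Their part in the values of the members was not tested. Of 11 measured markers of other cell types 6 were bright enough, among them the epithelial gene EPCAM at 10.47, and 0 of the 6 had an unadjusted p under 0.05. All pairs of arrays correlated at 0.997. The difference between the 3' and 5' actin control probe sets, a sign of RNA integrity and labelling, was 1.45, 1.49 and 1.40 on the DMSO arrays and 1.14, 1.18 and 1.31 on the CA arrays. It was thus lower on every CA array. The same difference for GAPDH did not separate the groups, at 0.62, 0.64 and 0.65 on the DMSO arrays and 0.63, 0.58 and 0.60 on the CA arrays. With the actin difference as a covariate 6 of the 27 tested member genes had an unadjusted p under 0.05, against 5.87% of all genes. GADD45A, GDF15, SESN2 and APAF1 had one with and without it, AEN and PPM1D only with it, and TNFRSF10A, SUSD6, DDB2 and PLK3 only without it. The sign differed between the fits for 10 of the 27, of which DDB2 alone had an unadjusted p under 0.05 without the covariate. Because the actin difference itself separates the groups, this fit tells it apart from CA only in part, and standard errors were larger. For TNFRSF10A the change was 0.23 without and 0.22 with the covariate, while its standard error went from 0.06 to 0.15. A p that crosses 0.05 between the fits therefore does not show that an effect was gained or lost. CA array 1 lay at -19.05 on the second principal component, where the other 5 arrays lay between 0.34 and 7.20. On the first it lay at -1.41, with the DMSO arrays between -9.98 and -5.89 and the other CA arrays at 11.61 and 13.29. Its mean correlation was 0.99670 with the other CA arrays and 0.99684 with the DMSO arrays.

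No p53 target gene passed the test at an adjusted p under 0.05. Of the 32 genes, 27 had a probe set bright enough to be tested (a mean of at least 3.49 over the 6 arrays). The members with the smallest p went both ways. GADD45A, TNFRSF10A and SUSD6 had higher signals with CA, and SESN2, APAF1, PLK3, GDF15 and DDB2 lower ones, at an unadjusted p under 0.05. Their fitted changes lay between -0.33 and 0.32 log2 units, which is 1.26-fold lower and 1.24-fold higher.

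By limma 0 of the 53 tested member probe sets were called at an adjusted p under 0.05, against 0.0952% of all 27307 tested, and with the mean-dependent variance prior 4 were, against 1.04%. At an unadjusted p under 0.05 there were 11 of 53, or 20.8%, against 9.31% of all probe sets. Of the 35 member probe sets too dim to be tested, 4 had groups that did not overlap, against 9.42% of all 27306 such probe sets. Counted once per gene, by the probe set with the highest mean signal, there were 8 of 27, or 29.6%, against 8.61% of the 12810 genes tested. Of these 8, 3 were higher in CA, where the share over all genes was 3.59%, and 5 were lower, where it was 5.02%. The CA and DMSO arrays did not overlap for 8 of the 27 genes, 4 with CA above and 4 with CA below, where the shares over all genes were 6.14% and 9.95%. The median change over the 27 genes was -0.02 and over all genes -0.01, and 16 of the 27 had a fitted fall, against 56.5% of all genes. The 3 TNFRSF10A and 2 GDF15 probe sets among the 11 share a target and are not independent. The share over all probe sets also depends on signal. With the filter at the 75th percentile it was 14%, where 10 of 32 member probe sets had an unadjusted p under 0.05. The members were chosen with earlier results of these data known, so these shares describe the list and do not test it.

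**Figure D1:**
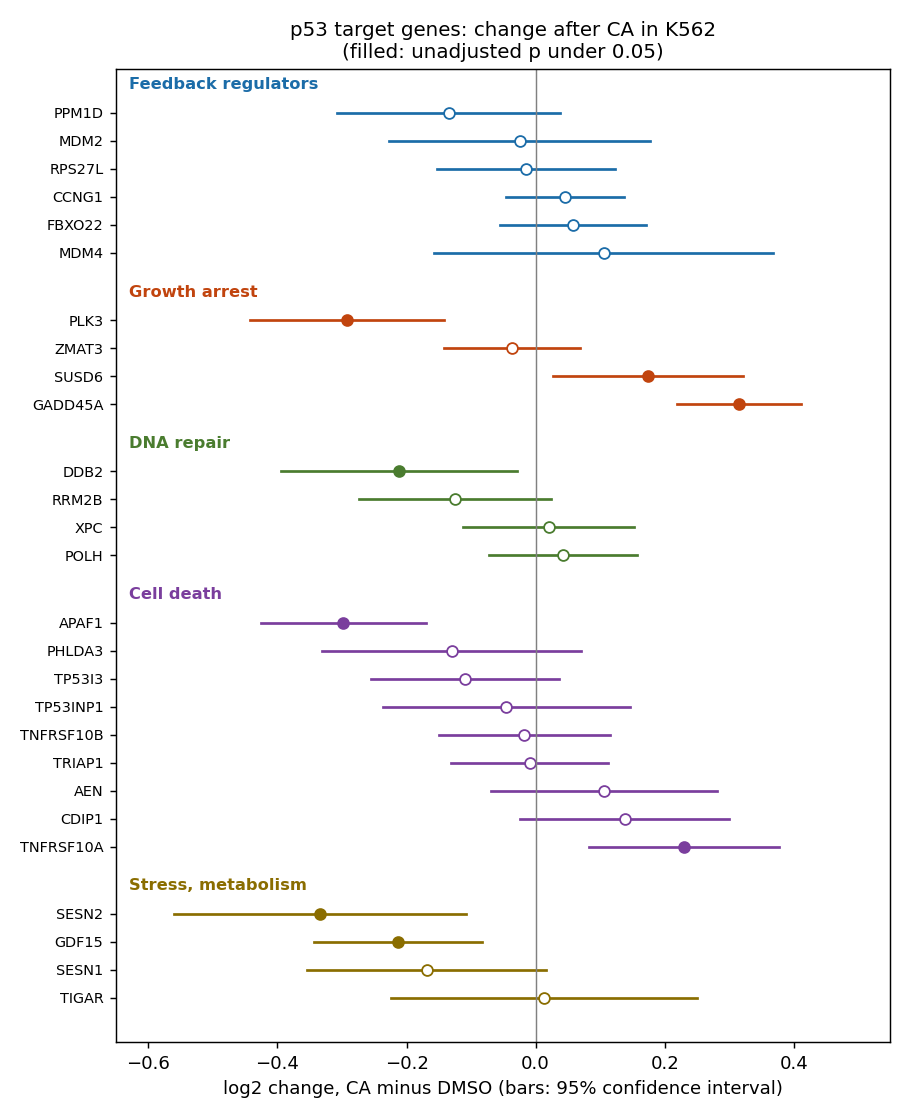
Log2 change, CA minus DMSO, of the 27 tested p53 target genes by role, each from its probe set with the highest mean signal, with the 95% confidence interval as a bar. Filled points mark the 8 genes with an unadjusted p under 0.05. They lie on both sides of 0, and the feedback regulators all have intervals that include 0.

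Sequences at the start sites were searched for the p53 half-site and other motifs. RefSeq promoters on GRCh38.p14, 250 bases before to 50 bases after the start, were held for 26 of the 33 members. The p53 half-site, the 10-base unit that p53 dimers bind, occurred on either strand in 4 of the 26 (15.4%), against 6.54% of all 27305 promoters. These half-sites lay in the promoters of PLK2 (AGACTTGCTT at chr5:58460209-58460218), RPS27L (AGACAAGCCC at chr15:63157527-63157536), AEN (GGGCTTGCCC at chr15:88621306-88621315) and FDXR (GGGCTTGCCC at chr17:74872996-74873005), written 5' to 3' on the strand of the gene. Only RPS27L and AEN of these 4 were tested, and neither is among the 8 above. The remaining motifs were searched on both strands and did not overlap one another in the promoters below. TGACGTCA, the cyclic AMP response element, was in 2 of 26 (CDIP1 and PPM1D) against 1.98% of all. TGANTCA, the AP-1 element, was in 2 (PERP and FAS) against 7.76%. TGATGNAA, part of the element bound by ATF4 with C/EBP proteins, was in 1 (PLK3) against 3.67%, and TATAAA was in 1 (GDF15) against 12% of all. A match describes the letters in this window and not a bound site.

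The 4 promoters shown, in order of rising unadjusted p, are those of APAF1 (chr12:98645040-98645339), PLK3 (chr1:44800127-44800426), GDF15 (chr19:18385908-18386207) and SESN2 (chr1:28259268-28259567), all on the plus strand and 5' to 3'. For all 4 genes the CA arrays lay below the DMSO arrays. No promoter was held for GADD45A, the member with the smallest p, and none of a member with higher signals in CA is shown. The shared direction therefore describes this selection only. Capitals mark a match to any of the 5 motifs.
APAF1: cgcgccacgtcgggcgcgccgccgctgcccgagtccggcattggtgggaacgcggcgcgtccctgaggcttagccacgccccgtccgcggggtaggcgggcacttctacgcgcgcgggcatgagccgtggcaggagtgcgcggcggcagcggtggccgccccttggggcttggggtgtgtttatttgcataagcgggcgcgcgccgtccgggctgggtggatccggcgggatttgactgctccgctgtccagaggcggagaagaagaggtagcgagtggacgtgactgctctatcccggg
PLK3: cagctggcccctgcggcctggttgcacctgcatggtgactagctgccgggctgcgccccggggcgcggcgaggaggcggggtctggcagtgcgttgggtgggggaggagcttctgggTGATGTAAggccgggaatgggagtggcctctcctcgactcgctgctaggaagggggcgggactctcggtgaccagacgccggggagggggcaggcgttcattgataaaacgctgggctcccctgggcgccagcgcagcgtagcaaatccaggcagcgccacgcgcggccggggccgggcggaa
GDF15: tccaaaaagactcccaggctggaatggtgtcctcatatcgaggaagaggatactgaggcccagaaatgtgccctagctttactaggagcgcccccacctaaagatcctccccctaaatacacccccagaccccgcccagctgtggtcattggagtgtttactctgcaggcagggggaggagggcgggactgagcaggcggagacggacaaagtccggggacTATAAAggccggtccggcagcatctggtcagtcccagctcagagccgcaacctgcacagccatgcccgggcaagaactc
SESN2: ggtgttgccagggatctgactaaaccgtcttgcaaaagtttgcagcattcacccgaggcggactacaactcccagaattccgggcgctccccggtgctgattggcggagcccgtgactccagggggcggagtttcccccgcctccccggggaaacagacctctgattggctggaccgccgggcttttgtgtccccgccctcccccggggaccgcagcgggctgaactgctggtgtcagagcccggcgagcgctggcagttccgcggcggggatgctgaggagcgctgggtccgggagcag
PLK3 holds TGATGTAA at -133 to -126 from the start and GDF15 holds TATAAA at -29 to -24. The APAF1 and SESN2 windows hold none of the 5 motifs. The windows of APAF1, PLK3 and SESN2 are 71.3%, 71% and 67% G and C, and that of GDF15 is 59.3%.

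None of the genes that feed back on p53 passed. All 6 were tested and 0 had an unadjusted p under 0.05, against 8.61% of all genes. Their changes lay between -0.13 and 0.11 with a median of 0.02. MDM2, the ubiquitin ligase that marks p53 for degradation, had signals of 8.50, 8.70 and 8.59 on the DMSO arrays and 8.72, 8.54 and 8.46 on the CA arrays. The groups overlapped, with CA array 1 the highest of the 6 arrays and CA array 3 the lowest, and the change was -0.02 (95% confidence interval -0.23 to 0.18). The other 3 tested MDM2 probe sets had changes of 0.09, -0.03 and -0.10, none with an unadjusted p under 0.05, and its further 6 probe sets were too dim to be tested. MDM4, which binds and blocks the activation domain of p53, had 6.82, 7.18 and 6.98 on the DMSO arrays and 7.12, 7.23 and 6.94 on the CA arrays, again overlapping, with a change of 0.11 (-0.16 to 0.37). MDM2 and MDM4 thus both had intervals that include 0, and the difference between them was not tested.

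CCNG1, the cyclin G1 gene and a long known p53 target, had 11.13, 11.11 and 11.12 on the DMSO arrays and 11.17, 11.17 and 11.15 on the CA arrays. The 3 CA arrays lay above the 3 DMSO arrays, by a change of 0.05 (-0.05 to 0.14, unadjusted p = 0.271). PPM1D, the phosphatase WIP1 that switches off p53 signalling, had a change of -0.13 (-0.31 to 0.04), FBXO22, the substrate receptor of a ubiquitin ligase, of 0.06, and RPS27L, a ribosomal protein-like regulator of MDM2, of -0.01. For these 3 the groups overlapped. Once the actin difference was a covariate, PPM1D was at -0.36 (unadjusted p = 0.049) and MDM2 at -0.22 (unadjusted p = 0.285), while FBXO22 was at -0.08 and MDM4 at -0.05, both with the sign turned.

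The growth arrest members held 3 of the 8 genes, with signals that went both ways. That is 3 of 4 tested, against 8.61% of all genes. GADD45A encodes a small protein that slows the cell cycle and activates stress kinases. Its signals were 10.30, 10.30 and 10.27 on the DMSO arrays and 10.58, 10.63 and 10.61 on the CA arrays. The lowest CA array stood well above the highest DMSO array, and the spread within each group was small (10.29 ± 0.02 against 10.61 ± 0.02, SD, n = 3). The change of 0.32 (0.22 to 0.41) had the smallest p of all members and did not pass (limma adjusted p = 0.0817). GADD45A has 1 probe set. With a variance prior that depends on mean signal, where 1.04% of all probe sets were called, it passed (adjusted p = 2.06e-05). With the actin difference as a covariate the change was 0.35 (unadjusted p = 0.0133).

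PLK3, a stress-responsive polo-like kinase, had lower signals with CA. Its signals were 4.52, 4.72 and 4.69 on the DMSO arrays and 4.36, 4.38 and 4.31 on the CA arrays. All CA arrays lay below all DMSO arrays, with a change of -0.29 (-0.44 to -0.14, adjusted p = 0.261). The second tested probe set of PLK3 had 0.05 (-0.26 to 0.36), and another, too dim to be tested, had 0.28, so the lower signal was seen on 1 probe set of 3. Averaged over its 2 tested probe sets, PLK3 had a change of -0.12 (unadjusted p = 0.188). The brightest, fitted with the actin covariate, gave -0.35 (unadjusted p = 0.0634). PLK2, its relative, was too dim to be tested, at 2.11, 1.58 and 1.67 on the DMSO arrays and 1.85, 1.83 and 1.71 on the CA arrays.

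SUSD6, a membrane protein gene induced by DNA damage, had 7.03, 7.12 and 7.24 on the DMSO arrays and 7.33, 7.30 and 7.28 on the CA arrays. The CA arrays lay just above the highest DMSO array, with a change of 0.17 (0.03 to 0.32, adjusted p = 0.453). With the actin covariate it was 0.06. ZMAT3, an RNA-binding zinc finger protein that mediates part of the growth restraint by p53, had a change of -0.04 (-0.14 to 0.07), and its 3 other tested probe sets lay between -0.07 and 0.00.

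**Figure D2:**
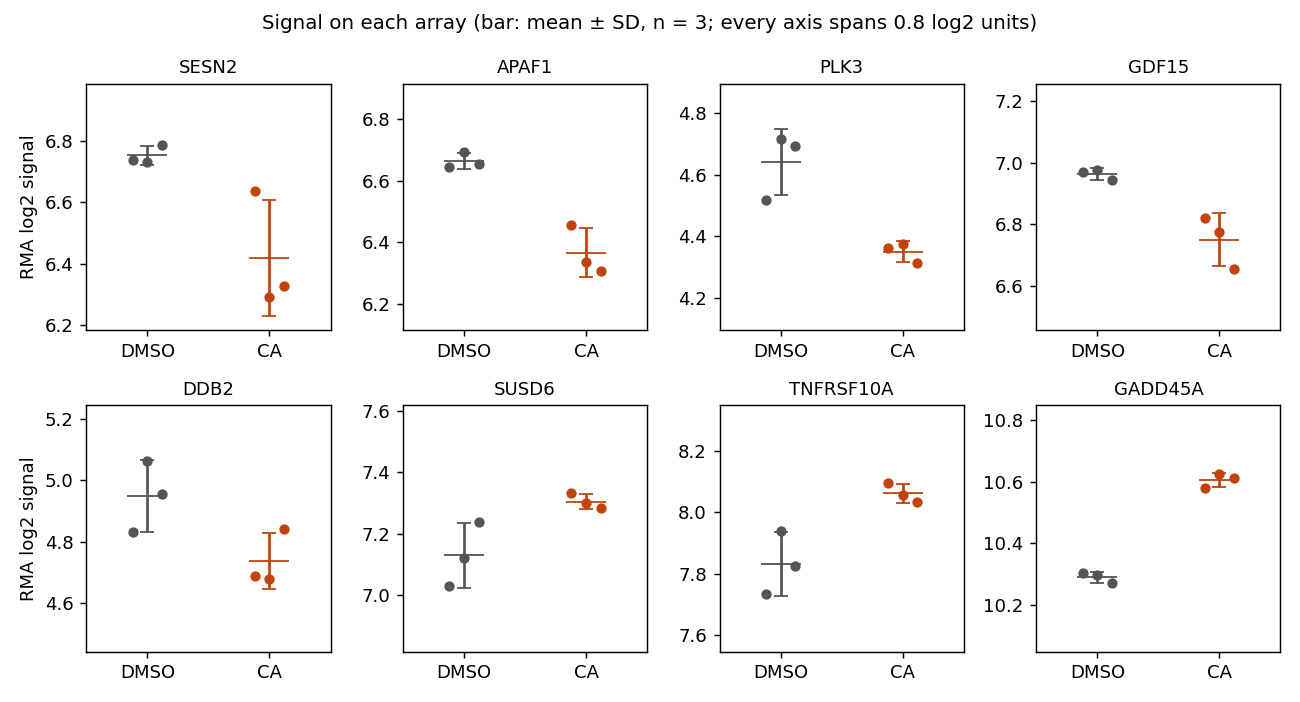
RMA log2 signal on each of the 3 DMSO and 3 CA arrays for the 8 p53 target genes with an unadjusted p under 0.05, with the mean and SD of each group; every axis spans the same range. DDB2 is the only one of the 8 whose groups overlap, and CA array 1 is the CA array closest to DMSO for SESN2, APAF1, GDF15 and GADD45A.

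Of the 4 DNA repair members, 1 had an unadjusted p under 0.05, against 8.61% of all genes. DDB2, the subunit of the UV-damage sensor that starts nucleotide excision repair, had 4.83, 5.06 and 4.95 on the DMSO arrays and 4.69, 4.68 and 4.84 on the CA arrays. DMSO array 1 lay below CA array 3, so the groups overlapped, and the change was -0.21 (-0.39 to -0.03, adjusted p = 0.463). With the actin covariate it was 0.02 (standard error 0.15, unadjusted p = 0.897), so that fit gave no clear direction. XPC, which recognises the distorted helix in the same pathway, had 7.93, 7.98 and 7.96 on the DMSO arrays and 7.93, 7.92 and 8.08 on the CA arrays, with no separation and a change of 0.02 (-0.11 to 0.15). POLH, the translesion polymerase eta, had a change of 0.04 (-0.07 to 0.16), and RRM2B, a ribonucleotide reductase subunit that supplies nucleotides for repair, of -0.13 (-0.27 to 0.02). In the fit with the actin covariate XPC was at 0.20 (unadjusted p = 0.107) and POLH at 0.17.

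Cell death genes formed the largest group, with 12 members, of which 9 were tested. Their median change was -0.02, and 3 had fitted rises and 6 fitted falls, where the share of falls over all genes was 56.5%. An unadjusted p under 0.05 was found for 2 of the 9, 1 in each direction, against 8.61% of all genes. TNFRSF10A, the death receptor DR4 for the ligand TRAIL, had 7.73, 7.94 and 7.83 on the DMSO arrays and 8.10, 8.06 and 8.03 on the CA arrays. All CA arrays lay above all DMSO arrays, with a change of 0.23 (0.08 to 0.38, adjusted p = 0.343). Its other 2 probe sets gave 0.28 (0.14 to 0.42) and 0.34 (0.17 to 0.51), each with the groups apart. These 2 probe sets passed with the mean-dependent variance, at adjusted p of 0.0294 and 0.0444, while the one of highest signal did not (adjusted p = 0.056). With the actin covariate the change of that probe set was 0.22 (unadjusted p = 0.193).

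TNFRSF10B, the second TRAIL death receptor DR5, had a change of -0.02 (-0.15 to 0.11), with 0.07 and 0.08 on its other tested probe sets. The intervals of the 2 receptors on their main probe sets overlapped slightly, and the difference between them was not tested. FAS, a further death receptor, was too dim to be tested on all 5 of its probe sets.

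APAF1, the scaffold of the apoptosome that activates caspase 9, had 6.65, 6.69 and 6.65 on the DMSO arrays and 6.46, 6.34 and 6.31 on the CA arrays. The CA arrays lay below the DMSO arrays, with a change of -0.30 (-0.43 to -0.17, adjusted p = 0.187). It passed with the mean-dependent variance (adjusted p = 0.0338), and with the actin covariate it was -0.41 (unadjusted p = 0.015). The second tested probe set, of lower signal, gave -0.01 (-0.13 to 0.12), and the intervals of these 2 probe sets did not overlap. One more was too dim to be tested and had 0.02.

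The remaining death members that were tested had intervals that include 0. TRIAP1, a small mitochondrial lipid transfer protein that restrains apoptosis, had 10.45, 10.38 and 10.50 on the DMSO arrays and 10.40, 10.41 and 10.48 on the CA arrays and a change of -0.01 (-0.13 to 0.11). AEN, an exonuclease that acts in apoptosis, had a change of 0.11, and CDIP1, a proapoptotic endosomal protein, of 0.14 (-0.02 to 0.30). AEN in the fit with the actin covariate was at 0.40 (unadjusted p = 0.0144) and CDIP1 at -0.05. PHLDA3, an inhibitor of AKT, had a change of -0.13, TP53I3, a quinone oxidoreductase, of -0.11, and TP53INP1, a stress protein linked to autophagy, of -0.05. PERP, a membrane protein of desmosomes, and CYFIP2, a subunit of the actin-regulating WAVE complex, were too dim to be tested. CYFIP2 had 2.51, 2.66 and 2.63 on the DMSO arrays and 2.60, 2.59 and 2.42 on the CA arrays, with the groups overlapping.

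Among the stress and metabolism members, 3 of the 4 tested genes had fitted falls, against 56.5% of all genes. Their median change was -0.19 over 4 tested genes. Of these, 2 had an unadjusted p under 0.05, both lower in CA, where the share over all genes was 5.02%. SESN2, sestrin 2, senses leucine and restrains mTORC1. Its signals were 6.74, 6.73 and 6.79 on the DMSO arrays and 6.64, 6.29 and 6.33 on the CA arrays. CA array 1 lay close to the DMSO arrays and the other CA arrays lay further below, so that the spread was wider in CA (6.42 ± 0.19) than in DMSO (6.75 ± 0.03, SD, n = 3). The change was -0.33 (-0.56 to -0.11, adjusted p = 0.357), and without CA array 1 it was -0.44 (adjusted p = 0.127). The second SESN2 probe set had -0.06 (-0.19 to 0.08), and the mean of both gave -0.19. With the actin covariate the change on the first was -0.60 (unadjusted p = 0.0222).

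SESN1, the related sestrin most closely tied to p53, had a change of -0.17 (-0.35 to 0.02, unadjusted p = 0.0675) with overlapping groups, and the difference between the sestrins was not tested. GDF15, a secreted stress cytokine, had 6.97, 6.98 and 6.94 on the DMSO arrays and 6.82, 6.78 and 6.66 on the CA arrays. The CA arrays lay below the DMSO arrays, with a change of -0.21 (-0.34 to -0.08, adjusted p = 0.328), and its second tested probe set had -0.25 (-0.51 to 0.00). With the actin covariate the first was at -0.38 (unadjusted p = 0.0159). TIGAR, a fructose bisphosphatase that slows glycolysis, had a change of 0.01 (-0.22 to 0.25). TIGAR and SESN1 with the actin covariate were at -0.25 and -0.02. SPATA18, a factor in mitochondrial quality control, was too dim to be tested, at 3.43, 3.26 and 3.70 on the DMSO arrays and 3.36, 3.43 and 3.46 on the CA arrays.

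**Figure D3:**
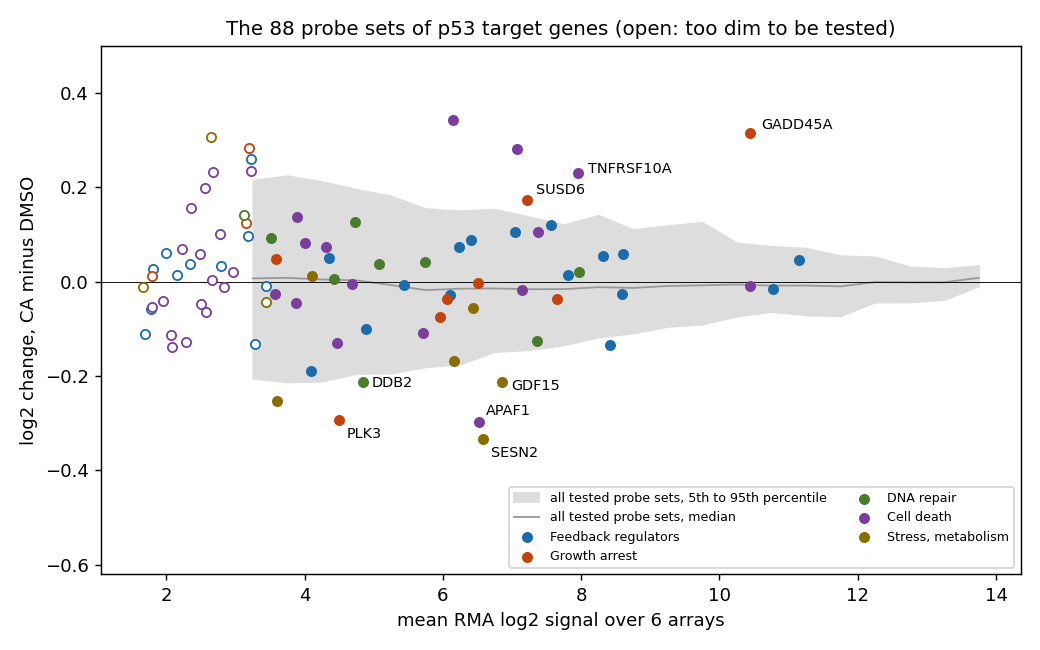
Log2 change, CA minus DMSO, of all 88 member probe sets against their mean RMA log2 signal over the 6 arrays, by role, over the band that holds the 5th to 95th percentile of all tested probe sets at that signal. Open points are the 35 too dim to be tested; GADD45A lies furthest from the band, and most filled points lie within it.

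**Figure D4:**
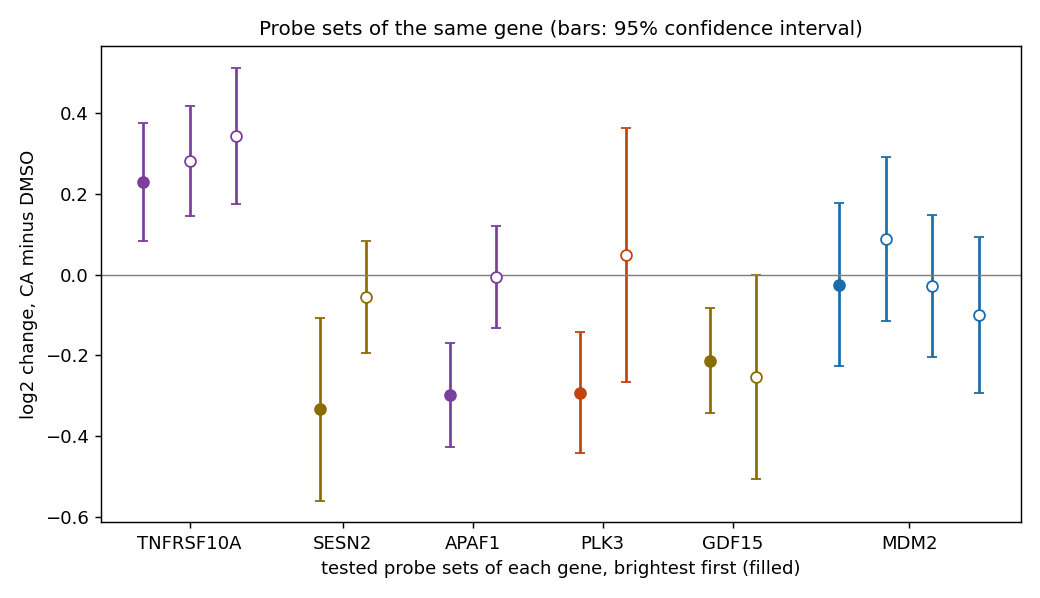
Log2 change with its 95% confidence interval for each tested probe set of 6 p53 target genes, brightest first and filled. The 3 TNFRSF10A probe sets lie together above 0, whereas for SESN2, APAF1 and PLK3 the second probe set lies near 0.

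Leaving out each array in turn kept the unadjusted p of GADD45A, APAF1, SESN2, PLK3, GDF15 and TNFRSF10A under 0.05 in all 6 fits. For SUSD6 and DDB2 this held in 2 of the 6. None of the 8 had an adjusted p under 0.05 in any of these fits. GADD45A lay between 0.31 and 0.33, APAF1 between -0.34 and -0.27, and PLK3 between -0.35 and -0.26. Scaling the arrays to the 3' probe sets of the added control RNAs moved the median of all probe sets from -0.01 to 0.20. It gave GADD45A 0.52, TNFRSF10A 0.44 and SUSD6 0.38, all with an adjusted p under 0.05. MDM2, MDM4, CDIP1 and FBXO22 each had a probe set called higher, where 13.2% of all probe sets were called. On that scale SESN2 was at -0.12, APAF1 at -0.09 and PLK3 at -0.08, none of them called, and GDF15 and DDB2 were at 0.00. All changes above are therefore relative to the other transcripts on the arrays.

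Other genes of the p53 network were read from lists that named them by function. Among p53 and its regulators, 19 of 23 listed genes had a probe set and 18 were tested, with 0 called and a median change of -0.01. Of the 18, 1 had an unadjusted p under 0.05 in each direction. The shares over all genes were 3.59% higher and 5.02% lower. The lower one was CREBBP, an acetyltransferase that acts on p53 (-0.18, -0.34 to -0.01). The higher one was CDKN2A (0.21, 0.06 to 0.36), which encodes the MDM2 inhibitor ARF and lies in a region known to be deleted in K562, and its DMSO mean of 4.05 was low. The damage kinase genes ATM, ATR, CHEK1 and CHEK2 had -0.17, 0.02, 0.00 and 0.05.

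Among other p53 targets, 22 of 25 listed had a probe set and 19 were tested, with 0 called, 1 higher and 4 lower at an unadjusted p under 0.05. The shares over all genes were again 3.59% higher and 5.02% lower. The higher one was PMAIP1, the BH3-only death protein NOXA (0.24, 0.13 to 0.36, adjusted p = 0.228). CDKN1A, the cell cycle inhibitor p21 and the best known p53 target, had -0.21 (-0.34 to -0.07, adjusted p = 0.343). The others were NOTCH1 at -0.18, SCO2, an assembly factor of cytochrome oxidase, at -0.15, and PIDD1, a scaffold of caspase 2, at -0.11. The death effector genes BAX and BAK1 had -0.07 and -0.07. The median of the 19 was -0.05 and 15 had fitted falls, against 56.5% of all genes. The growth arrest gene p21 and GADD45A lay on opposite sides of 0, as did the death genes NOXA and APAF1.

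The ATF4 targets were set beside SESN2 and GDF15 because these 2 members belong to both pathways. Of 16 listed, 15 were tested and 0 called, with 0 higher and 2 lower at an unadjusted p under 0.05, and their median was -0.03. At that p 3.59% of all genes were higher and 5.02% lower. Fitted falls numbered 10 of the 15, against 56.5% of all genes, and fitted rises 5, the highest DDIT4 at 0.18 (-0.10 to 0.46). The CA arrays all lay above the DMSO arrays for 1 of the 15, TRIB3, and below for 4. The shares over all genes were 6.14% and 9.95%. The lower ones were DDIT3, the stress transcription factor CHOP (-0.34, -0.49 to -0.19, adjusted p = 0.193), and SLC7A11, the cystine importer (-0.16, -0.31 to -0.01). ATF4 itself had -0.10 (-0.22 to 0.02), while ASNS, asparagine synthetase, had -0.02 and TRIB3, a pseudokinase, 0.06. These genes were measured on the same arrays as SESN2 and GDF15, and their part in the values of the members was not tested.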

How the data were processed

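RNA from 3 DMSO and 3 CA wells was labelled (100 ng of total RNA per sample) for Affymetrix U133 Plus 2.0 arrays, per the labels' protocols. The authors deposited log2 values per probe set made with RMA in the affy package, per the submitters' processing notes. RMA gives all arrays 1 distribution, so a shift common to most transcripts cannot be seen, and signals of different probe sets are not comparable as amounts. Precision is limited by the number of arrays (median standard error of a log2 change 0.07).

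Here 62 control probe sets were left out, and of the other 54613 the 27307 with a mean signal at or above the median were tested. Of these 54613 probe sets, 41091 had 1 symbol in the platform annotation, 1801 several and 11721 none, and none was named from several; RefSeq held the gene ID of 41037 of the first kind. CA was compared with DMSO in R 4.3.3 with limma 3.58.1 (a linear model with moderated variance, 2-sided) and Benjamini-Hochberg adjustment over all 27307, and the code was tested on simulated data. A gene was read from its probe set with the highest mean signal. The members and lists were chosen with earlier results of these data known. Named with values on every array were members with an unadjusted p under 0.05, MDM2, and per role the members with the highest and lowest signal; outside the members, up to 5 genes per list by smallest p, TRIB3, BAX, the damage kinases and a few others being chosen after their values were seen. Alternatives changed the filter, variance model, centring, control scaling, covariate, probe sets, replicate block and arrays.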

Additional observations from a re-analysis of the deposited data

How the results depend on the processing

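The count of 0 member probe sets called became 2 of 32 with the filter at the 75th percentile (GADD45A and APAF1), against 1.19% of all probe sets. It was 4 with the mean-dependent variance (GADD45A, APAF1 and 2 of TNFRSF10A), against 1.04%. With arrays scaled to the 3' probe sets of the added control RNAs it was 10. In the other settings it was 0, including without each array in turn. That 3' scaling adds 0.21 to every change, so that 13.2% of all probe sets were called, against 0.0952%. It gave 30 of 53 member probe sets an unadjusted p under 0.05, against 51% of all probe sets. The member median was 0.19, against 0.20 for all probe sets. GADD45A (0.52), TNFRSF10A (0.44) and SUSD6 (0.38) passed, while GDF15 and DDB2 were at 0.00. The 5' scaling gave a member median of 0.0236, against 0.0343 for all probe sets. Leaving out probe sets that the array design marks as shared left 31 member probe sets, of which 7 were at an unadjusted p under 0.05, against 8.56% of all. APAF1 and SESN2 were among the members that then had no tested probe set. GDF15 was read from its second, dimmer probe set, at -0.25 (limma unadjusted p = 0.0484). Without each array in turn the count at an unadjusted p under 0.05 lay between 8 and 14 of 53, against 7.67% to 11.3% of all probe sets. The member median lay between -0.0442 and -0.0110, the lowest without DMSO array 1. The actin covariate left 6 member genes with an unadjusted p under 0.05 in place of 8, against 5.87% of all genes. AEN (0.40) and PPM1D (-0.36) joined them, and TNFRSF10A, SUSD6, DDB2 and PLK3 left. DDB2 was near 0, at 0.0206 with a standard error of 0.15. That covariate itself separates the groups, so the fit tells it apart from CA only in part.

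The replicate numbers did not pair the arrays: same-numbered DMSO and CA arrays deviated from their group means with correlations of -0.07, 0.01 and 0.06. With the replicate block 0 member probe sets were called and 10 of 53 had an unadjusted p under 0.05, against 9.1% of all. Of all probe sets 0 were called, against 26 without it.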

Other observations

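Among the 35 member probe sets too dim to be tested, 4 had all CA arrays on 1 side of the DMSO arrays, against 9.42% of all probe sets below the filter. The MDM4 probe set had 3.19, 2.97 and 3.14 on the DMSO arrays and 3.23, 3.34 and 3.50 on the CA arrays. The dim probe set of PLK3 had 3.16, 3.16 and 2.81 on the DMSO arrays and 3.25, 3.38 and 3.35 on the CA arrays, opposite in direction to the brightest probe set of that gene. The same holds for GDF15, whose dim probe set had 2.44, 2.47 and 2.57 on the DMSO arrays and 2.95, 2.72 and 2.74 on the CA arrays. A PERP probe set had 2.44, 2.28 and 2.30 on the DMSO arrays and 2.26, 2.16 and 2.22 on the CA arrays, lower with CA. The changes of the other PERP probe sets went both ways, from -0.14 to 0.20, with the groups overlapping. These probe sets were below the signal filter and have no test.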
